A study of Mus musculus with 21 samples.

Results

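A set of 9 selenoprotein genes, among them 3 glutathione peroxidases, was followed in microglia and infiltrating myeloid cells of the injured mouse brain. They were Selenop, Gpx3, Gpx1, Gpx4, Selenok, Selenos, Selenof, Selenow and Msrb1, and their rows were taken by symbol from a table of 45706 gene identifiers. All 9 were present and all 9 passed the filter on low counts. The set was chosen by the measured level of Selenop, which was noted to be higher in infiltrating cells of mutant than of WT mice at 1 d, so that comparison is given below as a description, without a test. The other 8 are of the same family. RNA was sequenced in 21 libraries, 3 in each of 7 groups, and each library was made from sorted cells of 2 brains pooled at random. The mice were C57BL/6 males aged 17 to 24 weeks, either wild type (WT) or Fgg390-396A, a knock-in line in which the fibrinogen γ chain is altered so that leukocytes cannot bind fibrin through their integrin CD11b/CD18, while blood clots as usual. Injury was a controlled cortical impact (CCI), which strikes the exposed cortex through the intact dura. Microglia, sorted as CD45low CD11b+ cells, came from WT sham controls, which had anesthesia, scalp incision and craniotomy without impact, and from both genotypes at 1 d and 7 d post-CCI. Infiltrating myeloid cells, sorted as CD45hi CD11b+ cells and labelled macrophages, came from both genotypes at 1 d only. There was no Fgg390-396A sham group, so that in mutant mice against sham controls injury and genotype cannot be told apart.

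Selenoproteins carry selenocysteine, the selenium analog of cysteine, which the ribosome inserts at a UGA codon that would otherwise end translation. An element in the untranslated tail of the mRNA and a dedicated tRNA direct this reading. Many selenoproteins are redox enzymes, and the glutathione peroxidases among them reduce hydrogen peroxide or lipid peroxides with glutathione, which makes them part of the defense of brain phagocytes against the oxidants that they themselves release. SELENOP is secreted, as is GPX3, and differs from the rest in carrying selenium between cells.

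The codon that defines the family is shown because it sets SELENOP apart in sequence. Each line gives the coding sequence around the first in-frame TGA (in capitals) of 1 transcript per gene from GENCODE M21, with the position of the codon in that transcript and on GRCm38.
Selenop, codon 59 of 380, chr15:3274848-3274850, plus strand: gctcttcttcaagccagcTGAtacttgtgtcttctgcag
Gpx3, codon 73 of 226, chr11:54907256-54907258, plus strand: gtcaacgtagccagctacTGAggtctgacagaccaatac
Gpx1, codon 47 of 201, chr9:108339451-108339453, plus strand: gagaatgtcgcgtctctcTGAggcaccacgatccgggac
Gpx4, codon 129 of 253, chr10:80054737-80054739, plus strand: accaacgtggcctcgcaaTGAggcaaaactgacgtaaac
Selenok, codon 92 of 94, chr14:29973440-29973442, plus strand: cctccaatggctggtggaTGAggaaggtaa
Selenos, codon 189 of 190, chr7:66088844-66088846, plus strand: ggcccatcatctggcggcTGAaactaa
Selenof, codon 93 of 162, chr3:144590645-144590647, plus strand: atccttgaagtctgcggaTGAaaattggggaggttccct
Selenow, codon 13 of 88, chr7:15920464-15920466, minus strand: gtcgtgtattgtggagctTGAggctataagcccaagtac
Msrb1, codon 95 of 116, chr17:24740158-24740160, plus strand: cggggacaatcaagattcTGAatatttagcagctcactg
In Selenos and Selenok the codon lies just before the end of the reading frame, and in the peroxidases well inside it. Not counting the stop codon, which is itself TGA in Selenow, Selenop held 10 in-frame TGA codons and each of the other 8 genes held 1. The last 6 of Selenop fall within the 156 coding bases of chr15:3279549-3279704 (plus strand, TGA codons in capitals).
Selenop, codons 328 to 379: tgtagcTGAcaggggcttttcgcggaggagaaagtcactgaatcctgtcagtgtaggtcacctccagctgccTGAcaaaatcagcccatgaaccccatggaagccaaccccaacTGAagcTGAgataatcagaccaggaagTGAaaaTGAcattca
A full-length SELENOP thus takes several selenocysteines per molecule.

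Total counts per library lay between 18896957 and 51875767, with a median of 27001646, and ribosomal RNA genes took 43.0% to 58.6% of them. Levels are given as CPM, the counts of a gene divided by its library's total after scaling with edgeR's TMM factors and multiplied by 1000000. Gene length is divided out in the deposited values, so levels of different genes may be compared. A floor of 3 counts corresponded to 0.0578 to 0.159 CPM and covers counting error only. Fgg, the altered gene, had 0 counts in the 12 WT and sham libraries and 33 in all over 7 of the 9 mutant libraries. Of 8 microglia markers all were detected in every group, and their summed level was 10037 to 11159 CPM in sham microglia and 345 to 963 CPM in infiltrating cells. The infiltrating libraries held monocyte markers (sum 755 to 1115 CPM, against at most 59.1 CPM in microglia) and neutrophil markers (2743 to 13153 CPM, against at most 867 CPM). Against microglia, edgeR's test called 6 of 6 monocyte markers higher in each genotype. Of the 9 neutrophil markers it called 4 higher in WT and 5 in mutant mice. This gate may thus have held more than macrophages. In sorted populations, fewer cells of a type and less RNA per cell cannot be told apart. Nothing in the labels says whether the libraries of a group share a sorting day, and p-values measure the spread between pools of 2 brains.

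**Figure D1:**
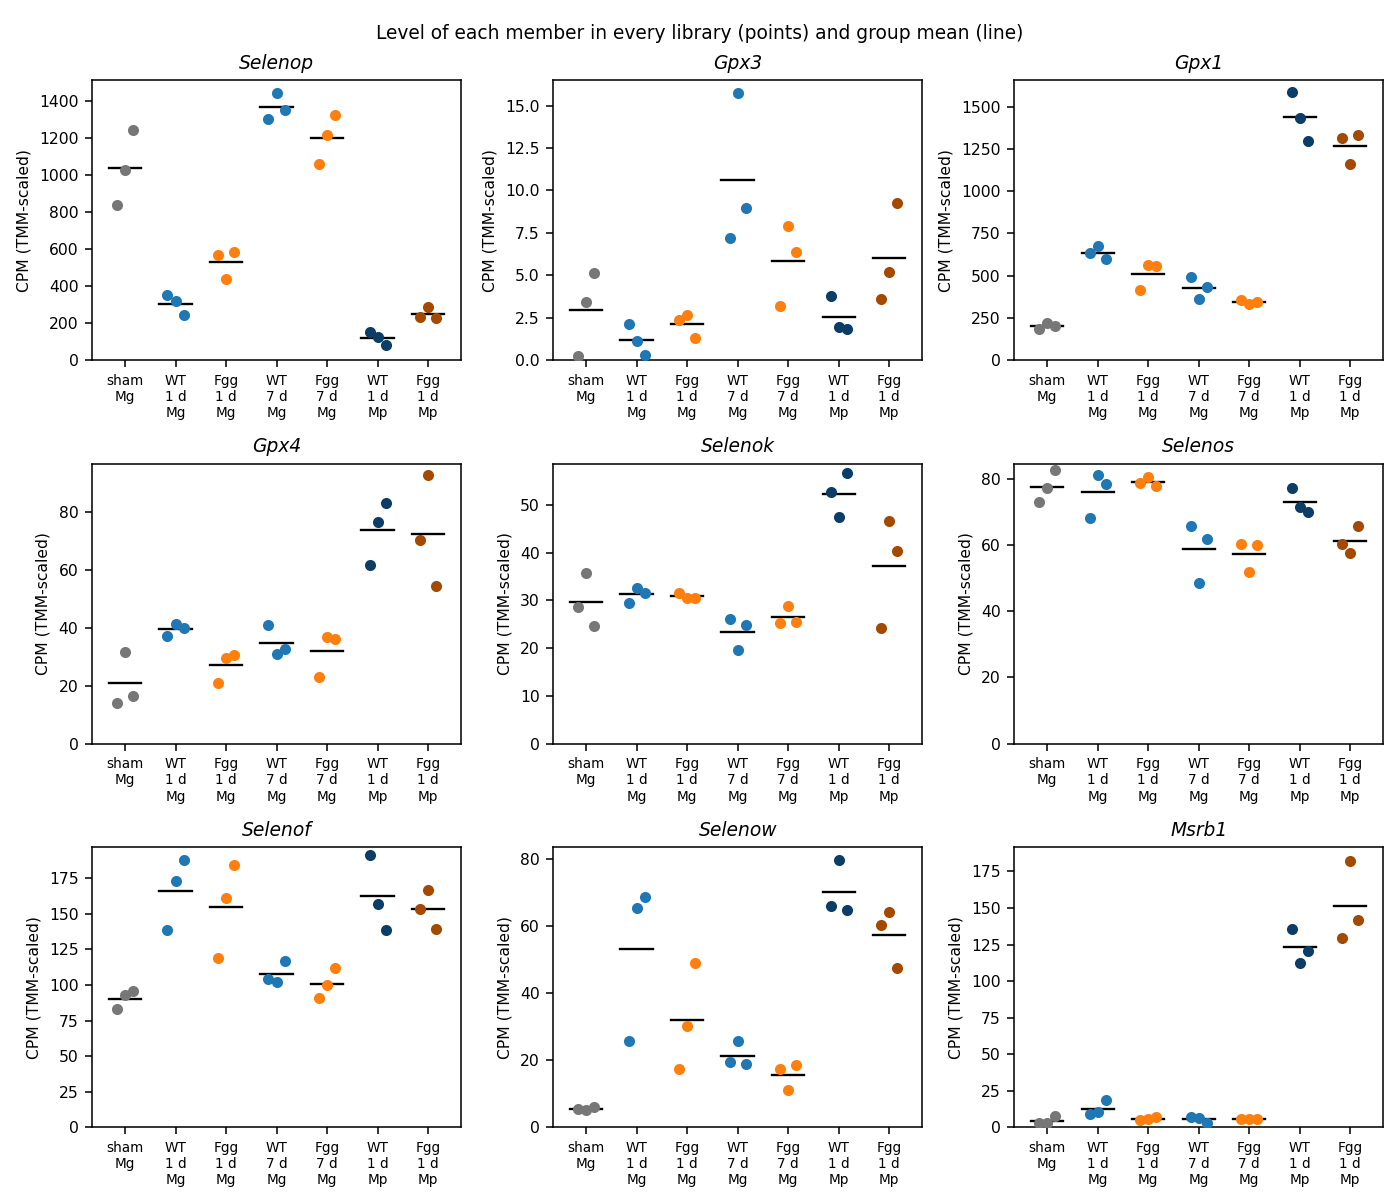
Level of each member (CPM, linear axis) in every library, with 1 point per library and a line at the mean of the 3 libraries of a group; Mg are microglia, Mp infiltrating myeloid cells, Fgg the Fgg390-396A mice. Selenop is low at 1 d and high at 7 d in microglia, Gpx1 and Msrb1 are highest in infiltrating cells, and Selenow is above sham in every injured library.

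In sham microglia the order of mean levels ran from Selenop (1037 ± 204 CPM, SD, n = 3) through Gpx1 (201 ± 19.2 CPM), Selenof (90.4 ± 6.74 CPM), Selenos (77.7 ± 4.98 CPM), Selenok (29.6 ± 5.53 CPM) and Gpx4 (20.7 ± 9.56 CPM) to Selenow, Msrb1 and Gpx3, which reached at most 7.57 CPM in a sham library. Neighbors in this order did not overlap between libraries for Selenop and Gpx1, Gpx1 and Selenof, Selenos and Selenok, or Gpx4 and Selenow, and overlapped for the others.

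At 1 d post-CCI, 6 of the 9 genes differed between WT and sham microglia, 5 higher and 1 lower (adjusted p under 0.05 in edgeR's quasi-likelihood test over 23815 genes), where 16.7% of all genes tested did, 10.7% higher and 5.97% lower. The genes that rose were Gpx1, Gpx4, Selenof, Selenow and Msrb1, and the gene that fell was Selenop. The median log2 fold change of the 9 was 0.88, against 0 over all genes tested. In Fgg390-396A microglia at 1 d, 4 of the 9 passed against the same sham libraries, with Gpx1, Selenof and Selenow higher and Selenop lower, and 9.79% of all genes did, 7.6% higher and 2.19% lower. At 7 d, 2 of the 9 passed in WT microglia and 2 in Fgg390-396A microglia, Gpx1 and Selenow in both and higher in both, while 2.69% and 0.886% of all genes passed (2.42% and 0.831% higher). These 4 comparisons share their sham libraries. The sham libraries also had the highest TMM factors, and with library totals alone as scaling the median of all genes moved by -0.67, -0.34, -0.47 and -0.25 log2 units in WT and mutant mice at 1 d and WT and mutant mice at 7 d. Under that scaling the members called at 1 d were 2 higher and 2 lower in WT mice and 2 higher and 1 lower in mutant mice, and those at 7 d were 1 higher (Selenow) and 2 lower (Selenok and Selenos) in WT mice and 0 in mutant mice. Of the 23815 genes tested, 5048 passed in WT and 1944 in mutant mice at 1 d under that scaling, and 1622 and 107 at 7 d. In WT mice at 1 d it was Gpx1 and Selenow that still passed as higher and Selenop and Selenos (log2 fold change -0.79) as lower, while Gpx4 (0.20), Selenof (0.12) and Msrb1 (0.81) no longer passed.

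**Figure D2:**
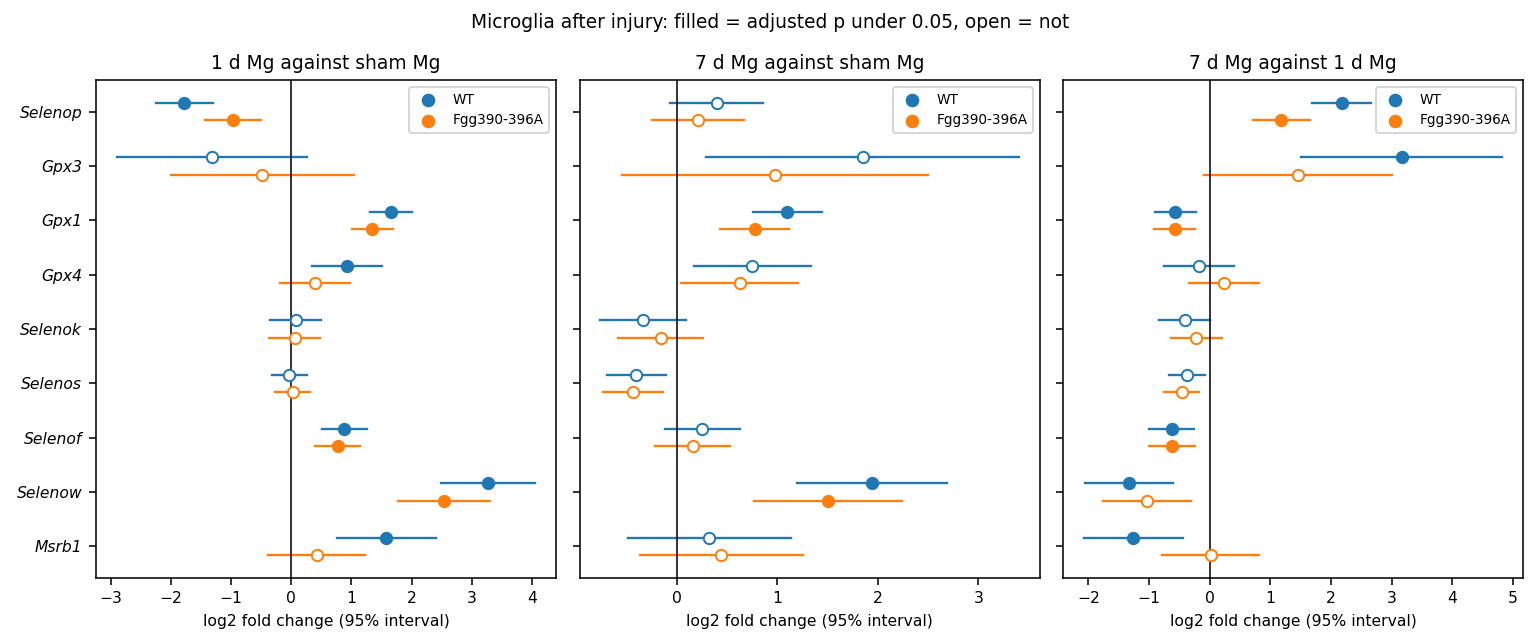
Log2 fold change of each member with its 95% interval (horizontal axes) in WT (blue) and Fgg390-396A (orange) microglia, for 1 d against sham, 7 d against sham and 7 d against 1 d; filled points passed an adjusted p of 0.05 in edgeR's test and open points did not. Selenop lies left of 0 at 1 d in both genotypes and right of 0 between 1 d and 7 d, opposite to Gpx1 in both.

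Selenop (ENSMUSG00000064373, chromosome 15, 3268547 to 3280508, plus strand on GRCm38) encodes the secreted selenium carrier. Its level was 838, 1028 and 1245 CPM in the sham libraries, 349, 317 and 242 CPM in WT microglia at 1 d, and 1301, 1444 and 1352 CPM at 7 d. All WT libraries at 1 d lay below all sham libraries, and all those at 7 d lay above them. The fall at 1 d was 3.43-fold (log2 fold change -1.78, standard error 0.22, adjusted p = 1.1e-05, edgeR's quasi-likelihood test). From 1 d to 7 d Selenop rose 4.52-fold in WT mice (log2 fold change 2.17, standard error 0.22, adjusted p = 1.0e-05, edgeR's test). The 7 d level did not pass against sham, at a log2 fold change of 0.40 with a 95% interval of -0.06 to 0.86 (adjusted p = 0.49, edgeR's test), and with library totals alone this difference was -0.15, and -0.11 in mutant mice.
In Fgg390-396A microglia Selenop was at 568, 438 and 582 CPM at 1 d and at 1061, 1218 and 1324 CPM at 7 d. The 1 d libraries lay below all sham libraries (1.96-fold lower, log2 fold change -0.97, standard error 0.22, adjusted p = 0.0052, edgeR's test), and the 7 d libraries overlapped with sham. The rise from 1 d to 7 d was 2.27-fold (log2 fold change 1.18, standard error 0.22, adjusted p = 0.0022, edgeR's test).
The microglia markers moved as well. Their summed level was 2744 to 4233 CPM in WT microglia at 1 d, with 6 of the 8 markers called lower than sham, and 4807 to 6225 CPM in the mutant, with 4 of 8 called lower. At 7 d the sum was 5976 to 6840 CPM in WT and 7041 to 8162 CPM in mutant microglia, below every sham library in both, while Selenop at 7 d lay within or above the sham range. The part of the marker change in the Selenop values was not tested.

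Gpx3 (ENSMUSG00000018339, chromosome 11, 54902453 to 54910377, plus strand), the secreted glutathione peroxidase of plasma, was scarce in these cells. It was at 0.255, 3.42 and 5.15 CPM in sham microglia, at 2.10, 1.12 and 0.312 CPM in WT microglia at 1 d, and at 7.17, 15.7 and 8.97 CPM at 7 d. The 3 libraries at 7 d were the highest of all WT microglia libraries, although the difference from sham did not pass (log2 fold change 1.85, adjusted p = 0.27, edgeR's test). Between 1 d and 7 d it rose 8.99-fold in WT mice (log2 fold change 3.17, standard error 0.77, adjusted p = 0.01, edgeR's test), a call that was lost without WT 1 d replicate 2 (adjusted p = 0.054, edgeR's test) or replicate 3 (adjusted p = 0.062, edgeR's test). In mutant microglia it went from 1.29 to 2.67 CPM at 1 d to between 3.18 and 7.90 CPM at 7 d, which did not pass (adjusted p = 0.33, edgeR's test).

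Gpx1 (ENSMUSG00000063856, chromosome 9, 108338903 to 108340343, plus strand), the abundant peroxidase of cytosol and mitochondria, ran opposite to Selenop. It was at 182, 220.5 and 199 CPM in sham microglia, at 635, 675 and 597 CPM in WT microglia at 1 d and at 492, 363 and 433 CPM at 7 d. In mutant microglia the values were 414, 562 and 557 CPM at 1 d and 353, 331 and 345 CPM at 7 d. Every injured library exceeded every sham library. Against sham the rise was 3.17-fold in WT mice (log2 fold change 1.66, standard error 0.16, adjusted p = 9.3e-07, edgeR's test) and 2.55-fold in mutant mice (1.35, standard error 0.16, adjusted p = 1.8e-05, edgeR's test) at 1 d. At 7 d it was 2.14-fold in WT mice (1.10, standard error 0.16, adjusted p = 0.00052, edgeR's test) and 1.71-fold in mutant mice (0.77, standard error 0.16, adjusted p = 0.019, edgeR's test). The last of these calls was lost when any 1 of the 6 libraries compared was left out, at adjusted p between 0.055 and 0.12 in edgeR's test. From 1 d to 7 d Gpx1 fell by 0.57 on the log2 scale in each genotype (adjusted p = 0.024 in WT and 0.037 in mutant mice, edgeR's test). That fall did not pass without WT 1 d replicate 2, WT 7 d replicate 2 or WT 7 d replicate 3 in WT mice (adjusted p of 0.059, 0.14 and 0.079, edgeR's test), nor without any mutant library except Fgg390-396A 1 d replicate 1 (0.099 to 0.20, edgeR's test).

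Gpx4 (ENSMUSG00000075706, chromosome 10, 80047166 to 80056439, plus strand), which reduces lipid peroxides within membranes and holds back ferroptosis, was at 14.0, 31.7 and 16.5 CPM in sham microglia. WT microglia at 1 d had 37.1, 41.3 and 39.9 CPM, above every sham library. The rise was 1.90-fold (log2 fold change 0.93, standard error 0.27, adjusted p = 0.022, edgeR's test), and it did not pass without sham replicate 1 (adjusted p = 0.12), sham replicate 3 (0.099) or WT 1 d replicate 2 (0.051), nor in a fit of these groups only (0.061), in the same edgeR test. Mutant microglia at 1 d, with 21.0, 29.7 and 30.7 CPM, overlapped with sham (log2 fold change 0.39, adjusted p = 0.44, edgeR's test). At 7 d WT microglia had 30.9 to 41.0 CPM and mutant microglia 23.0 to 36.8 CPM, and neither passed; in WT mice Gpx4 passed without sham replicate 2, the highest sham library (log2 fold change 1.19, adjusted p = 0.02, edgeR's test). Gpx4-ps2, a copy of Gpx4 at 99.7% identity over 762 bases, had no value of its own. Whether reads from this copy were counted under Gpx4 was not examined.

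Selenow (ENSMUSG00000041571, chromosome 7, 15917208 to 15922402, minus strand), a small thioredoxin-fold protein of the cytosol, had the largest rise of the members at 1 d in both genotypes. It was at 5.45, 5.09 and 6.06 CPM in sham microglia and at 25.8, 65.3 and 68.9 CPM in WT microglia at 1 d. WT microglia at 7 d had 19.4, 25.6 and 18.8 CPM. All injured WT libraries lay above sham, and the lowest at 1 d lay just above the highest at 7 d. The rise was 9.63-fold at 1 d (log2 fold change 3.27, standard error 0.36, adjusted p = 3.8e-06, edgeR's test) and 3.84-fold at 7 d (1.94, standard error 0.35, adjusted p = 0.003, edgeR's test). In mutant microglia it was at 17.3, 30.1 and 49.0 CPM at 1 d (5.79-fold, 2.53, standard error 0.35, adjusted p = 8.5e-05, edgeR's test). At 7 d the mutant values were 17.4, 11.1 and 18.6 CPM (2.84-fold, log2 fold change 1.5, standard error 0.34, adjusted p = 0.04, edgeR's test), and this call was lost without any 1 of the libraries compared except Fgg390-396A 7 d replicate 2 (adjusted p of 0.091 to 0.18, edgeR's test). The fall from 1 d to 7 d in WT mice was 2.51-fold (log2 fold change -1.33, standard error 0.34, adjusted p = 0.014, edgeR's test), with adjusted p of 0.054 to 0.065 in edgeR's test without WT 1 d replicate 2, WT 1 d replicate 3 or WT 7 d replicate 3. In mutant mice the log2 difference was -1.03 and did not pass (adjusted p = 0.086, edgeR's test).

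Msrb1 (ENSMUSG00000075705, chromosome 17, 24736642 to 24742778, plus strand) reduces oxidized methionine in proteins, including actin. It was low in microglia, at 2.49, 2.51 and 7.57 CPM in sham, at 9.09, 10.5 and 18.3 CPM in WT mice at 1 d and at 4.77, 5.36 and 6.95 CPM in mutant mice at 1 d. The WT libraries at 1 d lay above all sham libraries, and the mutant libraries lay within the sham range. Sham replicate 3 alone set the top of that range. Without it Msrb1 passed as higher in mutant microglia at 1 d (log2 fold change 1.18, adjusted p = 0.037, edgeR's test). In WT mice the rise was 2.99-fold (log2 fold change 1.58, standard error 0.38, adjusted p = 0.0058, edgeR's test; 0.06 in a fit of these groups only), and at 7 d it was back at 2.71 to 6.64 CPM, a fall of 2.39-fold from 1 d (log2 fold change -1.26, standard error 0.38, adjusted p = 0.038, edgeR's test). That fall did not pass without WT 1 d replicate 3 (adjusted p = 0.21), WT 7 d replicate 2 (0.056) or WT 7 d replicate 3 (0.18), all in edgeR's test. Msrb1 was far higher in infiltrating cells, at 113 to 182 CPM, and microglia libraries held some neutrophil markers. These summed to 160 to 810 CPM in sham, 173 to 839 CPM in WT 1 d and 105 to 433 CPM in mutant 1 d microglia. Their part in the Msrb1 values was not tested.

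The remaining members encode proteins of the endoplasmic reticulum. Selenof (ENSMUSG00000037072, chromosome 3, 144570304 to 144597680, plus strand), a partner of the glycoprotein folding sensor UGGT1, was at 82.8, 92.6 and 95.7 CPM in sham microglia. It was at 139, 173 and 188 CPM in WT and 119, 161 and 184 CPM in mutant microglia at 1 d, all above sham. The rise was 1.84-fold in WT mice (log2 fold change 0.88, standard error 0.17, adjusted p = 0.0012, edgeR's test) and 1.71-fold in mutant mice (0.78, standard error 0.17, adjusted p = 0.0056, edgeR's test). Neither rise passed with library totals alone (0.12 and 0.32, adjusted p = 0.65 and 0.23, edgeR's test). By 7 d Selenof was at 102 to 117 CPM in WT and 90.7 to 112 CPM in mutant microglia, lower than at 1 d in both (log2 fold changes -0.63 and -0.62, adjusted p = 0.023 and 0.041, edgeR's test). Those falls did not pass without WT 1 d replicate 3 or WT 7 d replicate 2 in WT mice (adjusted p of 0.069 and 0.092, edgeR's test), nor without any mutant library but Fgg390-396A 1 d replicate 1 (0.068 to 0.24, edgeR's test). Fgg itself lies on chromosome 3, as does Selenof. Between genotypes in microglia Selenof did not pass in edgeR's test (log2 fold change -0.10 at 1 d and at 7 d).
Selenos (ENSMUSG00000075701, chromosome 7, 66079649 to 66089405, plus strand), a membrane anchor in the removal of misfolded proteins, was at 72.9, 77.2 and 82.9 CPM in sham microglia and stayed within 68.2 to 81.2 CPM at 1 d in both genotypes. At 7 d all 6 libraries, at 48.7 to 65.8 CPM, lay below all sham libraries. The log2 fold changes against sham at 7 d were -0.40 in WT mice (adjusted p = 0.17, edgeR's test) and -0.44 in mutant mice (adjusted p = 0.22, edgeR's test), which did not pass, whereas DESeq2's Wald test called both (adjusted p = 0.0026 and 0.001).
Selenok (ENSMUSG00000042682, chromosome 14, 29968308 to 29975662, plus strand), which supports protein palmitoylation and calcium flux in immune cells, was at 24.7 to 35.6 CPM in sham microglia. It was at 29.5 to 32.5 CPM at 1 d in both genotypes and at 19.6 to 28.7 CPM at 7 d, and passed in no comparison among microglia. The interval of its log2 fold change at 1 d against sham ran from -0.35 to 0.50 in WT mice.

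Between 1 d and 7 d, 6 of the 9 genes changed in WT microglia, with Selenop and Gpx3 higher at 7 d and Gpx1, Selenof, Selenow and Msrb1 lower, while 10.3% of all genes tested passed, 3.7% higher and 6.6% lower. With library totals alone, 3 passed, 2 higher and 1 lower, where 1704 of all genes tested did. In Fgg390-396A microglia 3 of 9 changed, Selenop higher and Gpx1 and Selenof lower, against 5.64% of all genes, 1.08% higher and 4.56% lower. Under library totals alone 1 member passed in mutant mice, which was higher, where 846 of all genes tested did. The count in WT mice was 2 without WT 1 d replicate 3 and 3 without WT 1 d replicate 2, WT 7 d replicate 2 or WT 7 d replicate 3. In mutant mice it was 1 without any 1 of the libraries other than Fgg390-396A 1 d replicate 1.

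Selenop and Gpx1 were the most abundant members in every group except WT infiltrating cells, where Selenof (162 ± 26.7 CPM) and Msrb1 (123 ± 11.8 CPM) exceeded Selenop (119 ± 35.6 CPM). Since they moved in opposite directions, their share of selenoprotein RNA was computed within each library, where the scaling between libraries has no part. The 24 mouse selenoprotein genes comprise the 9 members and 15 others. Selenop made up 63.1%, 64.1% and 69.3% of their summed level in the sham libraries, 23.9%, 19.6% and 16.1% in WT microglia at 1 d, and 40.6%, 28.2% and 34.2% in mutant microglia at 1 d. At 7 d its share was again 59.3% to 66.7% in WT and 60.4% to 64.6% in mutant microglia. In infiltrating cells it was 5.93%, 5.45% and 3.80% in WT mice and 10.5%, 12.7% and 10.1% in mutant mice. Gpx1 took 11.1% to 13.7% in sham microglia, 39.8% to 43.6% in WT microglia at 1 d and 61.5% to 62.6% in WT infiltrating cells.
The level of Selenop per Gpx1 was thus 4.61 to 6.24 in sham libraries and 0.404 to 0.549 in WT microglia at 1 d. It was 0.779 to 1.37 in mutant microglia at 1 d, 2.64 to 3.98 in WT and 3.01 to 3.83 in mutant microglia at 7 d, and 0.0618 to 0.245 over the infiltrating libraries. At 7 d the libraries of both genotypes still lay below all sham libraries. The summed level of the 24 genes was 1329 to 1797 CPM in sham microglia, 1456 to 1617 CPM in WT microglia at 1 d and 2165 to 2194 CPM in WT microglia at 7 d. These shares are descriptions and were not tested.

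**Figure D3:**
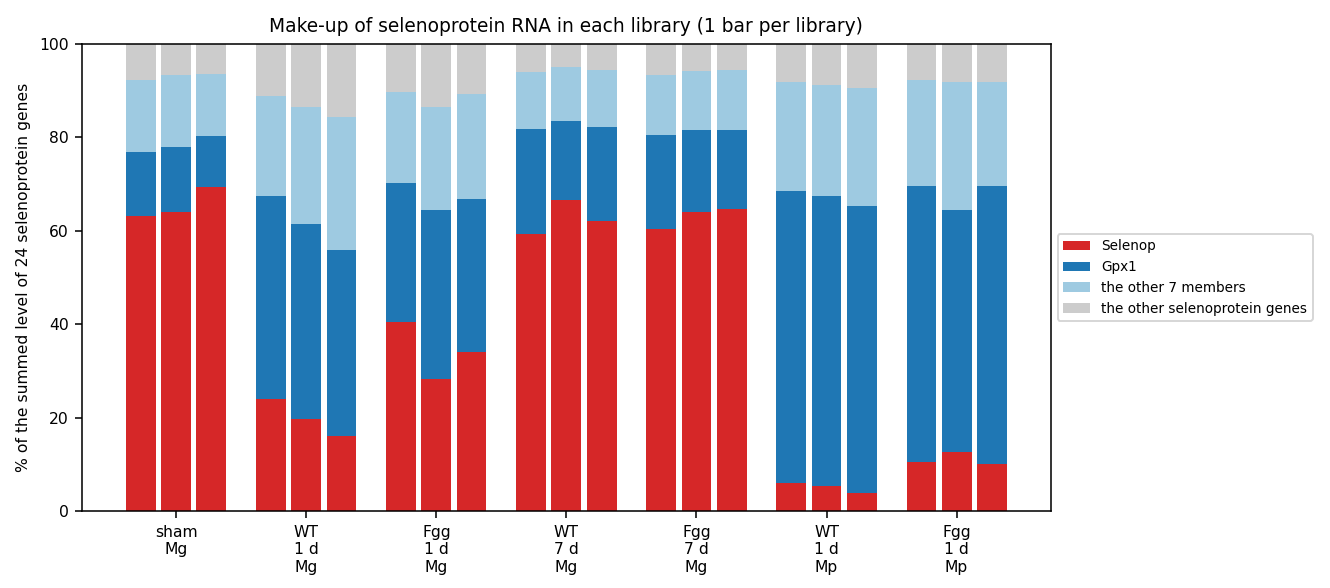
Share of the summed level of the 24 selenoprotein genes (vertical axis, percent) taken by Selenop, Gpx1, the other 7 members and the other 15 genes, with 1 stacked bar per library. Selenop takes 63.1% to 69.3% in sham microglia, 16.1% to 23.9% in WT microglia at 1 d and 3.80% to 5.93% in WT infiltrating cells, where Gpx1 takes 61.5% to 62.6%.

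The comparison of genotypes asked whether losing the fibrin motif for CD11b changed these genes. In microglia at 1 d, 0 of the 9 genes passed an adjusted p of 0.1 in edgeR's test, where 0.0546% of all genes did, and 3 reached an unadjusted p below 0.05. With DESeq2's Wald test 1 passed, Selenop, at a log2 fold change of 0.78. That test called 131 genes in all, where edgeR's called 13. Selenop was 1.75-fold higher in the mutant, at 438 to 582 CPM against 242 to 349 CPM in WT mice, without overlap (log2 fold change 0.81, 95% interval 0.34 to 1.27, adjusted p = 0.66 in edgeR's test, 0.041 in DESeq2's). The groups also did not overlap for Gpx1, Gpx4 and Msrb1, each lower in the mutant, so that 4 of 9 genes were separated, where 8.72% of all genes tested were. The log2 fold changes of these 3 were -0.32 (95% interval -0.65 to 0.02), -0.54 (-1.12 to 0.04) and -1.16 (-1.96 to -0.35), with adjusted p of 0.89, 0.89 and 0.84 in edgeR's test. Selenow had -0.73 (-1.45 to -0.02), and the rest lay between -0.10 and 0.06 except Gpx3 at 0.84 (-0.73 to 2.41). The summed microglia markers were likewise higher in the mutant libraries at 1 d, without overlap, and 0 of the 8 markers passed in edgeR's test. The markers were not examined with DESeq2's test, and their part in the Selenop difference was not tested.
At 7 d, 0 of the 9 passed in edgeR's or DESeq2's test, 0 reached an unadjusted p below 0.05, and 0.0378% of all genes passed in edgeR's. Selenop had a log2 fold change of -0.19 (95% interval -0.65 to 0.27) and Gpx1 of -0.32 (-0.66 to 0.02). Whether the genotype effect differed between the times was tested directly. For Selenop the effect at 7 d was lower than at 1 d by 0.99 on the log2 scale (95% interval of the difference -1.64 to -0.34, unadjusted p = 0.0041, adjusted p = 1 in edgeR's test). Of the 9 members 0 passed that test with edgeR or DESeq2, 2 (Selenop and Msrb1) reached an unadjusted p below 0.05, and 0% of all genes passed in edgeR's test.

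Infiltrating myeloid cells were compared with microglia of the same genotype at 1 d. Selenop was left out of both tests because the comparison that chose it uses its level in the infiltrating libraries of each genotype. In WT mice 4 of the 8 genes tested differed, Gpx1, Gpx4, Selenok and Msrb1, all higher in infiltrating cells, against 15.7% of all genes tested, 7.56% higher. In Fgg390-396A mice 3 of the 8 genes tested passed, Gpx1, Gpx4 and Msrb1, all higher, against 21.4% of all genes, 9.33% higher, and the median of all genes was -0.13. With library totals alone the median of all genes in mutant mice was -0.54, and the calls there were 3 higher and 1 lower, the lower gene being Selenos (log2 fold change -0.78, adjusted p = 0.0033, edgeR's test). Of all genes tested, 5831 passed in mutant mice under that scaling.
Msrb1 showed the widest gap. It was at 136, 113 and 120.5 CPM in WT and 129, 182 and 142 CPM in mutant infiltrating cells, and at no more than 18.3 CPM in any microglia library. The difference was 9.73-fold in WT mice (log2 fold change 3.28, standard error 0.40, adjusted p = 8.8e-06, edgeR's test) and 26.6-fold in mutant mice (4.74, standard error 0.42, adjusted p = 2.7e-07, edgeR's test).
Gpx1 reached 1589, 1433 and 1297 CPM in WT and 1315, 1163 and 1336 CPM in mutant infiltrating cells, above every microglia library. It was 2.26-fold higher in WT mice (1.18, standard error 0.16, adjusted p = 3.3e-05, edgeR's test) and 2.49-fold higher in mutant mice (1.31, standard error 0.16, adjusted p = 7.9e-06, edgeR's test).
Gpx4 had 61.7, 76.4 and 83.0 CPM in WT and 70.3, 92.6 and 54.3 CPM in mutant infiltrating cells. All 6 lay above all microglia libraries, and the gene was 1.87-fold higher in WT mice (0.90, standard error 0.27, adjusted p = 0.028, edgeR's test) and 2.67-fold higher in mutant mice (1.42, standard error 0.27, adjusted p = 0.0009, edgeR's test). The WT call was lost without WT microglia replicate 1 or 3, or without infiltrating replicate 2 or 3 (adjusted p of 0.051 to 0.096, edgeR's test).
Selenok had 52.6, 47.4 and 56.7 CPM in WT infiltrating cells, above all WT microglia libraries (1.67-fold, log2 fold change 0.74, standard error 0.20, adjusted p = 0.013, edgeR's test; 0.052 without infiltrating replicate 3 and 0.053 with library totals alone). In mutant infiltrating cells it had 24.2, 46.7 and 40.4 CPM, which overlapped with mutant microglia (0.27, adjusted p = 0.35, edgeR's test). Without WT infiltrating replicate 3 the count in WT mice was 2 of 8.
Selenop was at 150.3, 126 and 80.2 CPM in WT infiltrating cells, below every WT microglia library (log2 fold change -1.35, standard error 0.22). In mutant mice the log2 fold change was -1.09 (standard error 0.22). Both are descriptions, with no test. All 8 microglia markers were called lower in infiltrating cells of each genotype.
Selenof (139 to 191 CPM), Selenow (47.4 to 79.8 CPM) and Gpx3 (1.85 to 9.24 CPM) did not pass between infiltrating cells and microglia in either genotype, nor did Selenos, at -0.06 in WT and -0.37 in mutant mice (adjusted p = 0.9 and 0.063, edgeR's test). The log2 fold change of Selenof was -0.04 (95% interval -0.41 to 0.34) in WT and -0.01 (-0.39 to 0.36) in mutant mice. Selenow in mutant mice had 0.84 (0.12 to 1.55, adjusted p = 0.083 in edgeR's test) and passed in DESeq2's Wald test (adjusted p = 0.019).

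**Figure D4:**
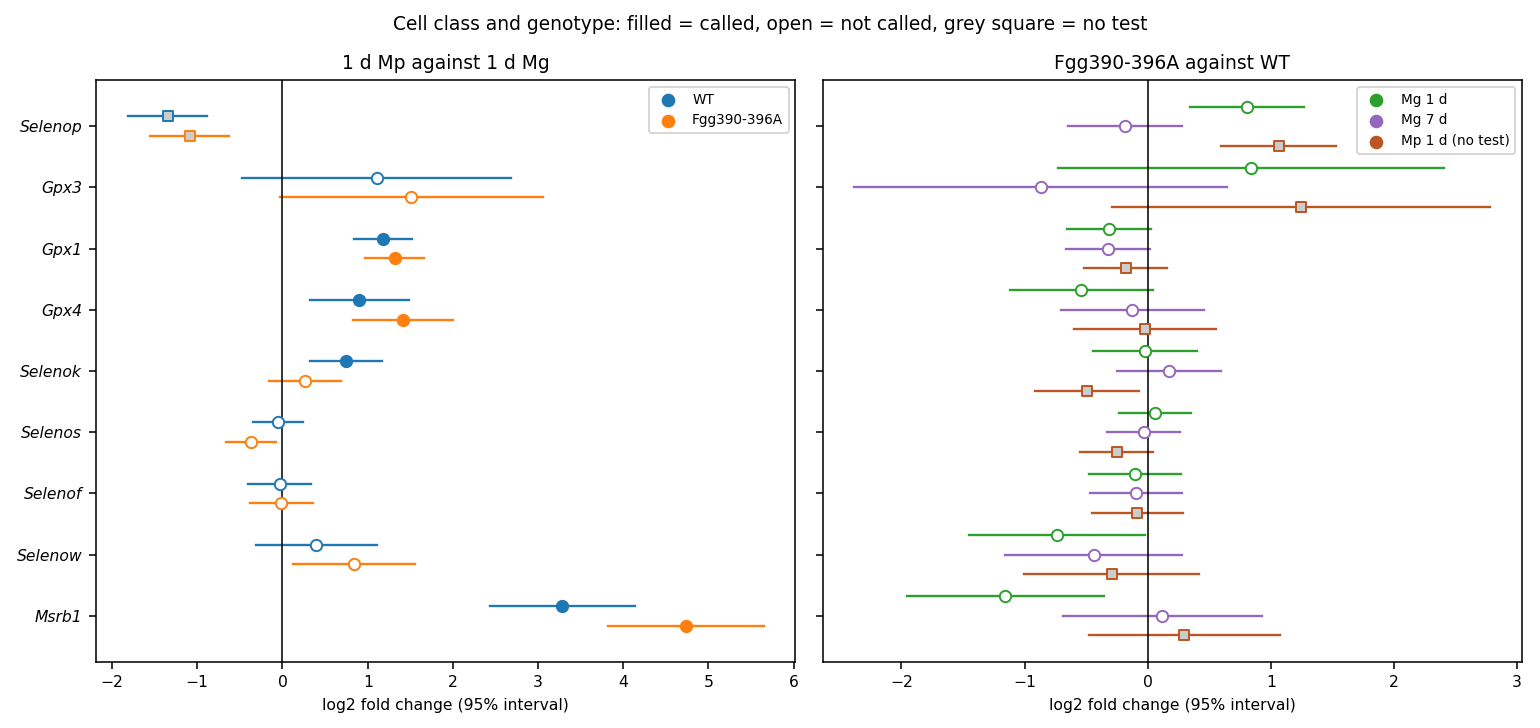
Log2 fold change of each member with its 95% interval (horizontal axes), left for infiltrating cells (Mp) against microglia (Mg) at 1 d in each genotype, right for Fgg390-396A against WT mice in microglia at 1 d and 7 d and in infiltrating cells at 1 d. Filled points passed edgeR's test at an adjusted p of 0.05, open points did not pass (0.1 between genotypes) and grey squares were not tested; Msrb1 lies farthest to the right in the left panel at 3.28 and 4.74.

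Between mutant and WT infiltrating cells, the comparison for which Selenop was noted, Selenop was at 233, 285 and 226 CPM in the mutant and at 150.3, 126 and 80.2 CPM in WT mice. All mutant libraries lay above all WT libraries, and the log2 fold change was 1.06 (standard error 0.22), a 2.09-fold higher mean. Gpx3 had a larger fold change on much lower levels, at 3.61, 5.21 and 9.24 CPM against 3.77, 1.95 and 1.85 CPM, which overlapped (1.24, standard error 0.72). Selenok (-0.49), Selenos (-0.25) and Selenow (-0.29) were lower in the mutant without overlap, and Gpx1 (-0.18), Gpx4 (-0.03), Selenof (-0.08) and Msrb1 (0.30) overlapped. In all, 4 of 9 genes did not overlap, where 8.02% of all genes tested did not, and 0.495% of all genes passed an adjusted p of 0.1 in edgeR's test. Since this comparison chose Selenop, these values carry no test.
Several markers of resident cells had higher means in the same mutant libraries. The summed microglia markers were at 564 to 963 CPM in mutant and 345 to 645 CPM in WT infiltrating cells, with overlap. Of the 8 markers of border-associated macrophages, the resident macrophages of meninges and vessels, Lyve1 had a mean of 27.3 against 3.43 CPM, Cd163 of 6.72 against 1.42 CPM, Cbr2 of 31.8 against 14.7 CPM, Folr2 of 8.79 against 4.39 CPM and Mrc1 of 109 against 64.2 CPM in mutant against WT mice. Pf4 was at 1421 against 1401 CPM, F13a1 at 149.7 against 182 CPM and Ms4a7 at 134 against 162 CPM, and the sum of the 8 markers, 1407 to 2172 CPM against 1354 to 2221 CPM, overlapped. Neutrophil markers summed to 2743 to 5771 CPM in the mutant and 3528 to 13153 CPM in WT mice. None of the microglia, border-associated macrophage or neutrophil markers passed an adjusted p of 0.1 in edgeR's test, and their part in the Selenop difference was not tested.

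**Figure D5:**
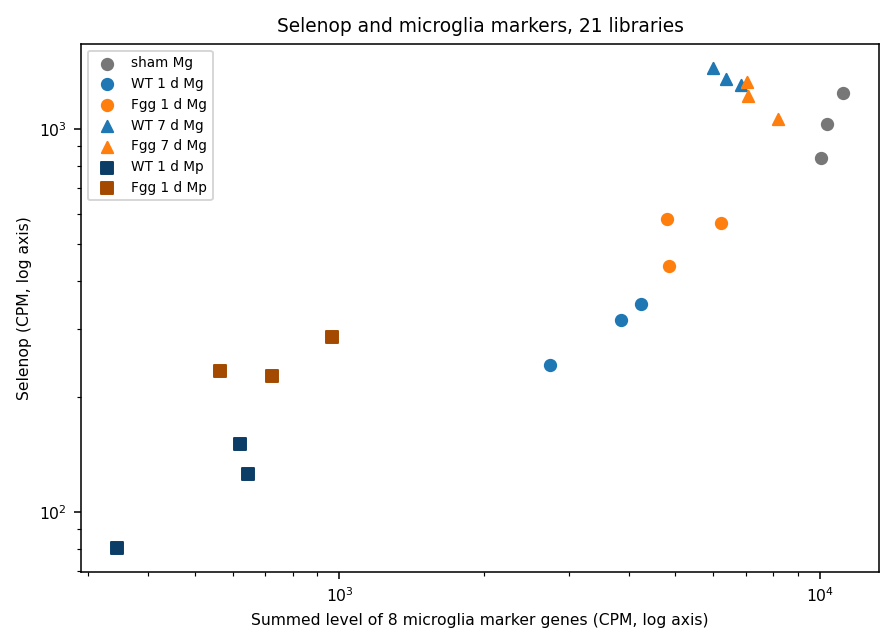
Selenop (vertical axis, CPM, log scale) against the summed level of 8 microglia marker genes (horizontal axis, CPM, log scale), with 1 point per library. Infiltrating libraries (squares) lie at the lower left, WT microglia at 1 d below mutant microglia at 1 d, and the 7 d libraries (triangles) lie to the left of sham with Selenop as high or higher.

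The genes whose levels were most like Selenop over the 21 libraries were Zfp652 (Pearson r = 0.982 on log2 CPM), Abca9 (0.971), Ppfia4 (0.970), Unc93b1 (0.968) and Trf (0.962), out of 12301 genes compared. Zfp652 is a zinc finger repressor, Abca9 a lipid transporter of the ABCA class, Unc93b1 the carrier that brings nucleic acid-sensing Toll-like receptors to endosomes, and Trf transferrin. Zfp652 had mean levels of 45.1 CPM in sham microglia, 20.4 and 25.8 CPM in WT and mutant microglia at 1 d, 46.6 and 42.4 CPM at 7 d, and 14.3 and 18.2 CPM in WT and mutant infiltrating cells. The libraries fall into groups and share cell class and time, so these values describe the group pattern. After subtraction of the group means the correlation of Zfp652 with Selenop was 0.829 and that of Trf 0.354. None of the other members had such a pattern, since Gpx3 had r = 0.368 and the rest between -0.860 (Gpx1) and -0.314 (Selenos).

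Among the 15 other selenoprotein genes, 12 were tested. In WT microglia at 1 d, 6 of these were higher than sham and 0 lower, where 10.7% of all genes tested were higher and 5.97% lower. Txnrd1, the cytosolic thioredoxin reductase, had 22.8 against 4.77 CPM (log2 fold change 2.26, adjusted p = 5.5e-06, edgeR's test), Selenoh, a nuclear redox protein, 32.3 against 10.4 CPM (1.63, adjusted p = 0.00015, edgeR's test) and Selenon, of the endoplasmic reticulum, 16.1 against 4.94 CPM (1.70, adjusted p = 0.00026, edgeR's test). The same 3 genes and Selenot were higher in mutant microglia at 1 d (4 higher, 0 lower), and Selenoh alone passed at 7 d, in WT mice (1.05, adjusted p = 0.029, edgeR's test). Of all genes tested, 7.6% were higher and 2.19% lower in mutant microglia at 1 d, and 2.69% passed in WT and 0.886% in mutant microglia at 7 d. Between 1 d and 7 d, 3 fell in WT and 4 in mutant mice, and 0 rose, where 6.6% and 4.56% of all genes fell. Txnrd1 was down 4.79-fold and 2.75-fold. With library totals alone the median of all genes at 1 d against sham moved by -0.67 in WT and -0.34 log2 units in mutant mice. The calls of these genes under that scaling were not examined.
Infiltrating cells of WT mice had 2 of the 12 higher, Sephs2, which makes the selenium donor, and Txnrd1, while those of mutant mice had Txnrd1 higher and 3 lower, Selenoo, Selenoi and Selenoh. Of all genes tested, 15.7% passed between infiltrating cells and microglia in WT mice (7.56% higher) and 21.4% in mutant mice (9.33% higher). Between genotypes in microglia 0 of the 12 passed in edgeR's test at either time, where 0.0546% of all genes passed at 1 d and 0.0378% at 7 d.
Of 10 genes for selenium uptake and selenocysteine insertion, 9 were tested. In WT microglia at 1 d, 1 of the 9 was higher than sham, where 10.7% of all genes tested were. It was Sars, the seryl-tRNA synthetase that charges the selenocysteine tRNA with serine (32.5 against 15.5 CPM, log2 fold change 1.06, adjusted p = 0.0058, edgeR's test). Sars fell again by 7 d (-1.01, adjusted p = 0.013, edgeR's test), where 6.6% of all genes fell. In mutant microglia 0 passed against sham at 1 d or 7 d, where 9.79% and 0.886% of all genes did. With library totals alone the median of all genes in WT mice at 1 d against sham moved by -0.67 log2 units. The call of Sars under that scaling was not examined. Between infiltrating cells and microglia, 15.7% of all genes passed in WT and 21.4% in mutant mice. Secisbp2, which binds the insertion element of selenoprotein mRNAs, was lower in infiltrating cells than in microglia in WT mice (7.97 against 15.0 CPM, -0.91, adjusted p = 0.038, edgeR's test) and in mutant mice (-1.12, adjusted p = 0.0083, edgeR's test). In mutant infiltrating cells Pstk (-2.02) and Sepsecs (-1.15), which convert seryl-tRNA to selenocysteyl-tRNA, were lower too, and Lrp8, a receptor for SELENOP, was higher, at 4.8 against 0.34 CPM (3.80, adjusted p = 0.0043, edgeR's test). The lowest of these mutant infiltrating libraries had 0.67 CPM of Lrp8. In WT mice Lrp8 was also higher without overlap, at 2.78 to 5.14 CPM in infiltrating cells against 0.43 to 1.41 CPM in microglia, but did not pass.

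All 12 genes of glutathione synthesis and thiol reduction were tested. In WT microglia at 1 d, 7 rose and 1 fell against sham, in mutant microglia 4 rose, and at 7 d 0 passed in either genotype. Of all genes tested, 10.7% rose and 5.97% fell in WT and 7.6% rose in mutant microglia at 1 d. At 7 d 2.69% and 0.886% of all genes passed. Library totals alone moved the median of all genes by -0.67 and -0.34 log2 units at 1 d. The calls of these 12 genes under that scaling were not examined. Txn1, thioredoxin, went from 18.3 to 76.7 CPM in WT mice (2.06, adjusted p = 1.8e-06, edgeR's test), Glrx, glutaredoxin, from 10.3 to 152 CPM (3.89, adjusted p = 7.6e-06, edgeR's test) and Slc7a11, the cystine importer, from 1.16 to 14.8 CPM (3.67, adjusted p = 3.2e-05, edgeR's test). Txn1, Glrx and Txn2 had the smallest adjusted p among the 4 that rose in the mutant, with log2 fold changes of 1.61, 2.89 and 1.26. Between 1 d and 7 d, 7 fell in WT and 5 in mutant microglia, where 6.6% and 4.56% of all genes fell.
In infiltrating cells 4 were higher and 1 lower than in WT microglia, and 6 were higher and 2 lower in mutant mice. Of all genes tested, 15.7% passed in WT mice (7.56% higher) and 21.4% in mutant mice (9.33% higher). Txn1 had 468 against 76.7 CPM in WT mice (2.61, adjusted p = 2.2e-07, edgeR's test), Gsr, glutathione reductase, which regenerates the glutathione used by the peroxidases, 108 against 18.4 CPM (2.56, adjusted p = 8.0e-06, edgeR's test) and Slc7a11 132 against 14.8 CPM (3.16, adjusted p = 8.7e-05, edgeR's test). In mutant mice these had log2 fold changes of 2.72, 3.29 and 4.88.
Of 5 endoplasmic reticulum partners of SELENOK, SELENOS and SELENOF, 4 rose in WT microglia at 1 d, among them Vcp, the segregase that extracts misfolded proteins (1.07, adjusted p = 0.00033, edgeR's test), Zdhhc6, the palmitoyl transferase that works with SELENOK (0.88, adjusted p = 0.015, edgeR's test), and Derl2 (0.65, adjusted p = 0.025, edgeR's test). In mutant microglia 1 rose, Vcp (0.81, adjusted p = 0.0061, edgeR's test). Among all genes tested, 10.7% rose in WT and 7.6% in mutant microglia at 1 d. With library totals alone the median of all genes in WT mice at 1 d against sham moved by -0.67 log2 units. The rise of Derl2 was no larger than that shift, and the calls of these partners under that scaling were not examined.
Of 3 genes that act with GPX4 on lipid peroxides or their substrates, Acsl4 rose in microglia at 1 d in WT (0.68, adjusted p = 0.0076, edgeR's test) and mutant mice (0.60, adjusted p = 0.027, edgeR's test). In these comparisons 10.7% and 7.6% of all genes tested rose, and library totals alone moved the median of all genes by -0.67 and -0.34 log2 units. The WT rise of Acsl4 was about as large as that shift, and its calls under that scaling were not examined. In infiltrating cells Aifm2, the ubiquinone reductase that limits ferroptosis beside GPX4, was higher than in microglia in WT mice (7.3 against 0.381 CPM, 4.25, adjusted p = 0.0015, edgeR's test) and mutant mice (5.05, adjusted p = 0.0004, edgeR's test), and Lpcat3 was lower in both (-1.11 and -1.16). Among all genes tested, 15.7% passed between infiltrating cells and microglia in WT and 21.4% in mutant mice. The 2 glutathione peroxidases without selenocysteine that were tested, of 4 listed, passed in no comparison.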

How the data were processed

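RNA-seq of sorted microglia and infiltrating myeloid cells was analysed in 21 libraries, 3 per group, grouped by their labels. The authors trimmed the reads, ran salmon within nf-core/rnaseq against GRCm38 and deposited an estimated count per gene, scaled so that gene length is divided out within a library and not normalized between libraries. Of the genes, 56.79% held values that were not whole, and values were rounded. Identifiers were matched to GENCODE M21 (45143 of 45706). The kit does not mark strand.

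Counts were tested with edgeR 4.0.16 in R 4.3.3 (TMM, quasi-likelihood test, Benjamini-Hochberg adjustment) in 1 fit of all libraries, after genes under 5 counts over all libraries were left out. Genes were called at an adjusted p under 0.05, or 0.1 between genotypes, with no bar on the fold. The text names all members, up to 3 called genes per list and comparison by adjusted p, and the 5 genes most like Selenop by Pearson r on log2 of CPM plus 0.1, among genes with a mean of at least 1 CPM; other marker and list genes were named after their values were seen. Members and lists were chosen with earlier results of these data known. Standard errors come from the fold change and its F statistic, with 14 residual degrees of freedom, and intervals are 95%. The scripts were tested on simulated data.

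Same-numbered libraries deviated together in microglia of both genotypes at 1 d (r = 0.383, 0.160 and 0.109 across genes, from the data and not the labels), and in no other comparison did every pair exceed 0.1. Replicates differed by more than counting noise (chi-square per degree of freedom at least 18.6). Alternatives were DESeq2 1.42.0's Wald test and size factors, library totals alone, other count filters, removal of ribosomal RNA genes, a fold bar, fits of the compared groups only, a replicate block and leaving out each library. Coding sequences were read from the genome by GENCODE M21 annotation. Copies of Gpx4 and Selenok that lack a value were not analysed here.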

Additional observations from a re-analysis of the deposited data

How the results depend on the processing

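The counts of members called moved by more than 1.5 times in these cases. With a bar of 1 on the absolute log2 fold change, 2 members passed in Fgg390-396A microglia at 1 d against sham, 1 at 7 d against sham, 1 between 7 d and 1 d in mutant mice and 2 in WT infiltrating cells against microglia. With library totals alone, 0 passed in mutant microglia at 7 d against sham, 3 between 7 d and 1 d in WT mice and 1 in mutant mice. Fits of the compared groups only left 1 member in mutant mice at 7 d against sham and 1 between 7 d and 1 d, and DESeq2's size factors left 1 in the latter. DESeq2's Wald test called 1 member, Selenop, among 131 genes called between genotypes in microglia at 1 d, where edgeR's called 0 members among 13. Leaving out 1 library at a time gave 5 to 6 members in WT and 4 to 5 in mutant mice at 1 d against sham, 2 to 3 in WT and 0 to 1 in mutant mice at 7 d against sham, 2 to 7 in WT and 1 to 4 in mutant mice between 7 d and 1 d, 2 to 4 in WT and 3 to 4 in mutant infiltrating cells against microglia, and 0 in each genotype comparison of microglia and in the difference between times. With the replicate number as a block the count between 7 d and 1 d in WT mice was 5 in place of 6, since Msrb1 no longer passed (log2 fold change -1.18, adjusted p = 0.06 in edgeR's test), and the block changed no other call of a member. Over all alternatives, 1390 member fold changes kept sign and call, 90 that passed in neither setting or were not tested changed sign, 66 lost and 19 gained a call, 1 moved (Selenop in mutant infiltrating cells against microglia, to -1.51 with library totals alone) and 0 reversed a call; the causes were not tested. Selenop at 1 d against sham and between 7 d and 1 d kept its call in both genotypes under every alternative run, as did Gpx1 and Selenow at 1 d against sham, except that Selenop in mutant mice at 1 d (-0.97) missed the bar on the fold. At 3 libraries per group, changes near the smallest called here, such as that of Gpx1 between 1 d and 7 d, depended on single libraries. Gpx3 had between 8 and 387 counts per library.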
